A study of Ovis aries with 5 samples.

Results

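CYBB, XDH and TXN are genes of redox metabolism, and their messenger RNA was measured here in sheep dendritic cells (DC), which take up antigen in the skin and carry it to lymph nodes through the lymph. All probes named for these genes in the array files were taken: 3 for CYBB, 2 for XDH and 2 for TXN, 7 of 15008 distinct probes in all, for 3 of 890 named genes. The genes had been proposed with results of these data known, the XDH difference between the subsets among them, so the values below describe them and are given without a test.

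Cells positive for CD1b from skin lymph were sorted by CD26, as CD26+ and CD26- DC, in sheep 30066 and in sheep 10081, which gave 2 arrays per subset, 1 from each sheep. CD1b presents lipid antigens and CD26 is a cell surface protease; strain, age and treatment of the sheep are not given in the sources used here. On these 4 arrays Cy3 marked the sorted cells and Cy5 a common reference, RNA of enriched, unsorted lymph DC taken from further sheep. A self-hybridisation array held that reference in both dyes and serves as the level of total DC. The labelling protocol names a cultured cell line as the reference instead, so which RNA it was is not settled by the labels; the name total DC is kept here because the samples carry it. The arrays of a subset come from separate sheep, and the sheep lay in different rows of the slide, the self-hybridisation in the row of sheep 30066, so an effect of the row cannot be told apart from the sheep. CD1B, a gene of the sort marker, was well above background on all 5 arrays, as were the other 3 DC markers with a named probe, CD1, CD80 and CD86, of 8 listed. The T cell genes CD3E, CD5 and CD247 were as well, so detection alone does not identify the cells. CD86 stood below total DC on all 4 subset arrays, at -1.83 to -0.505 from the self-hybridisation. CD1 and CD80 stood above it on all 4, and CD1B on both sides.

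CYBB encodes the catalytic chain of the phagocyte NADPH oxidase, which moves electrons from NADPH to oxygen and makes superoxide; in DC this oxidase is known for slowing the breakdown of antigen in phagosomes. XDH, xanthine dehydrogenase, carries out the last steps of purine breakdown to uric acid, and in its oxidase form releases superoxide and hydrogen peroxide. TXN, thioredoxin, works on the other side of the balance: it reduces disulfide bonds in proteins and passes electrons to the peroxiredoxins that remove peroxide, and it is itself reduced with NADPH.

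The probes are shown because their overlap decides how far they count as separate measurements of a gene. Each is 60 bases long and written 5′ to 3′, and capitals mark the bases it shares with another probe of the same gene. The first CYBB probe shares no stretch with the others, while the second and the third are the same site moved by 1 base, with 59 bases in common. The XDH probes share 48 bases, and the TXN probe shown shares 15 with the other TXN probe, which is not shown.
CYBB A_70_P068061: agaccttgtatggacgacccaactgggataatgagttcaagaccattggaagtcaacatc
CYBB A_70_P021811: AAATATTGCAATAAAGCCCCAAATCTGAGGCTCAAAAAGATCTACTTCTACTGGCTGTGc
CYBB A_70_P021812: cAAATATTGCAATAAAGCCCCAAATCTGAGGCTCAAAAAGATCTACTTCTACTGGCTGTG
XDH A_70_P068212: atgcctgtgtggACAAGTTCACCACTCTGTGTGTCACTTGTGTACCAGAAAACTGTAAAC
XDH A_70_P068211: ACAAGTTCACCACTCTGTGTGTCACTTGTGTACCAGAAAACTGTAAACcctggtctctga
TXN A_70_P039382: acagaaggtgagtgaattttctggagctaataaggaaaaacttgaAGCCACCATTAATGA
The XDH pair and the second and the third CYBB probes are therefore repeats of nearly the same hybridisation. The first CYBB probe against the second, and the TXN pair, are closer to separate measurements of 1 transcript.

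The 3 genes had different patterns over the arrays. XDH was weak but measurable and stood higher in CD26+ than in CD26- cells in both sheep, by about the same amount in each. CYBB in the sorted cells was above background only in sheep 10081, where it was highest in CD26+ cells. TXN was bright everywhere, stood below total DC in both subsets of both sheep, lower in sheep 10081 than in sheep 30066, and differed little between the subsets. Values are the log2 ratio of sample over total DC after background correction and normalisation within each array; 1 on this scale is a doubling.

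**Figure D1:**
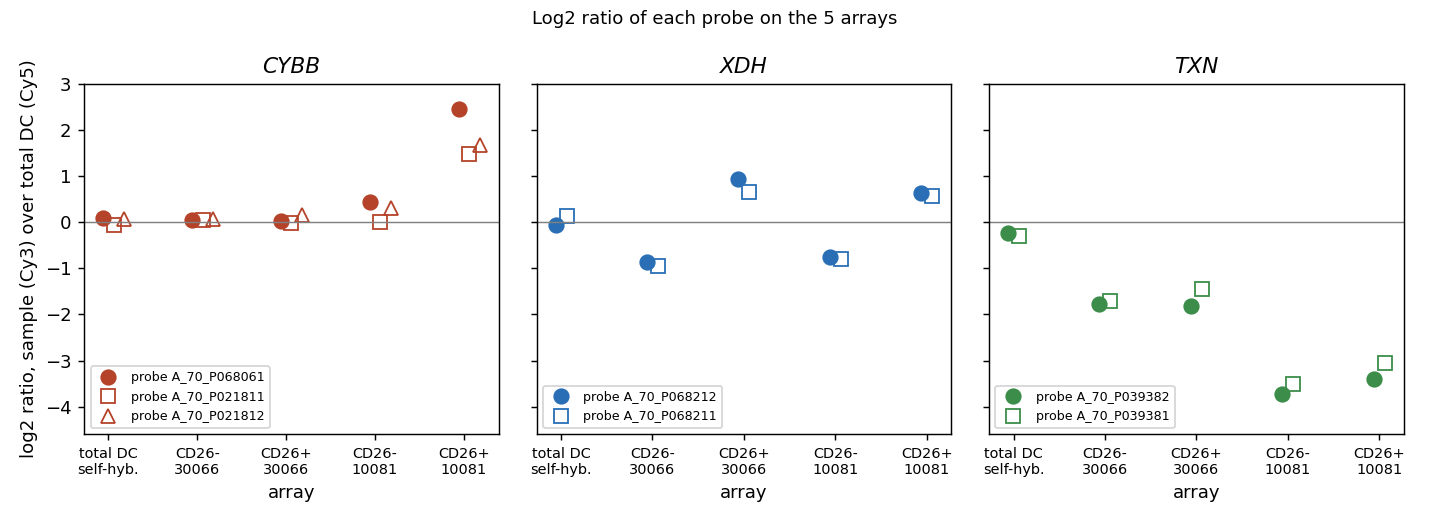
Log2 ratio of sample (Cy3) over total DC (Cy5) for each probe on the 5 arrays, 1 panel per gene; each point is 1 probe on 1 array, and there are no error bars because each point is a single array. XDH points of CD26+ cells lie between 0.56 and 0.94 and those of CD26- cells between -0.95 and -0.75, CYBB leaves 0 mainly on the CD26+ array of sheep 10081, and TXN lies lowest on the arrays of sheep 10081.

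Of the oxidases, XDH is described first. At the brighter probe, A_70_P068212, the ratio was -0.87 in CD26- and 0.94 in CD26+ cells of sheep 30066, -0.75 in CD26- and 0.62 in CD26+ cells of sheep 10081, and -0.06 on the self-hybridisation. Both CD26+ arrays lay above total DC and both CD26- arrays below it, with no overlap between the subsets. The other probe gave -0.95 and 0.66 in sheep 30066, -0.81 and 0.56 in sheep 10081, and 0.13 on the self-hybridisation, again without overlap. The probes differed by at most 0.28 on any array.

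Within a sheep, XDH at the brighter probe was higher in CD26+ than in CD26- cells by 1.81 in sheep 30066 and by 1.38 in sheep 10081, a mean of 1.59 ± 0.31 (SD, n = 2 sheep), or 3.02-fold. The other probe gave 1.61 and 1.37, a mean of 1.49 ± 0.17. Its 1.61 is set against a CD26- spot not well above background, so CD26- cells were measured at this probe on 1 of 2 arrays. The brighter probe, measured on all arrays, exceeded a 2-fold difference toward CD26+ cells in each sheep, as did 2.37% of all probes with values (2.92% toward CD26- cells). It also had both CD26+ arrays above both CD26- arrays, as did 14.9%, and 16.7% had them below. XDH was chosen with this difference in view, so nothing is read from these shares. The size depends on the background model: fitted on all spots, including those beside bright specks, it gave 0.79 at the brighter probe and 0.56 at the other, and with a smaller offset 2.00 and 2.16.

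Against total DC the subsets lay on opposite sides, by amounts that depend on the processing. CD26+ cells stood above the self-hybridisation by 0.84 (SE 0.43) at the brighter probe, 1.003 in sheep 30066 and 0.69 in sheep 10081. CD26- cells stood at -0.75 (SE 0.43), -0.81 in sheep 30066 and -0.69 in sheep 10081. The corresponding values of the other probe were 0.48 (SE 0.41) and -1.01 (SE 0.41). Under the all-spots background model the CD26- value was -0.11 at the brighter probe and -0.17 at the other. The CD26+ value at the other probe was 0.10 with the arrays scaled to a common spread and 0.29 with median centring.

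The signals behind these ratios were low. The Cy3 signal of the brighter XDH probe was 71.8 and 259 units in CD26- and CD26+ cells of sheep 30066, 100.1 and 228 units in those of sheep 10081 and 109 units in total DC, over a median local background of 36.5 to 39 units. Its Cy5 signal, which is always total DC, varied only from 192 to 225 units, so the ratio moved with the Cy3 signal of the sorted cells. The other probe was not well above background in CD26- cells of sheep 30066, at 57.7 units, and was on the other 4 arrays. Its Cy5 signal was 146 and 160 units on the CD26- and CD26+ arrays of sheep 30066 and 161 and 120 units on those of sheep 10081. Its difference of 1.37 in sheep 10081 therefore moved with Cy5 as well as Cy3.

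**Figure D2:**
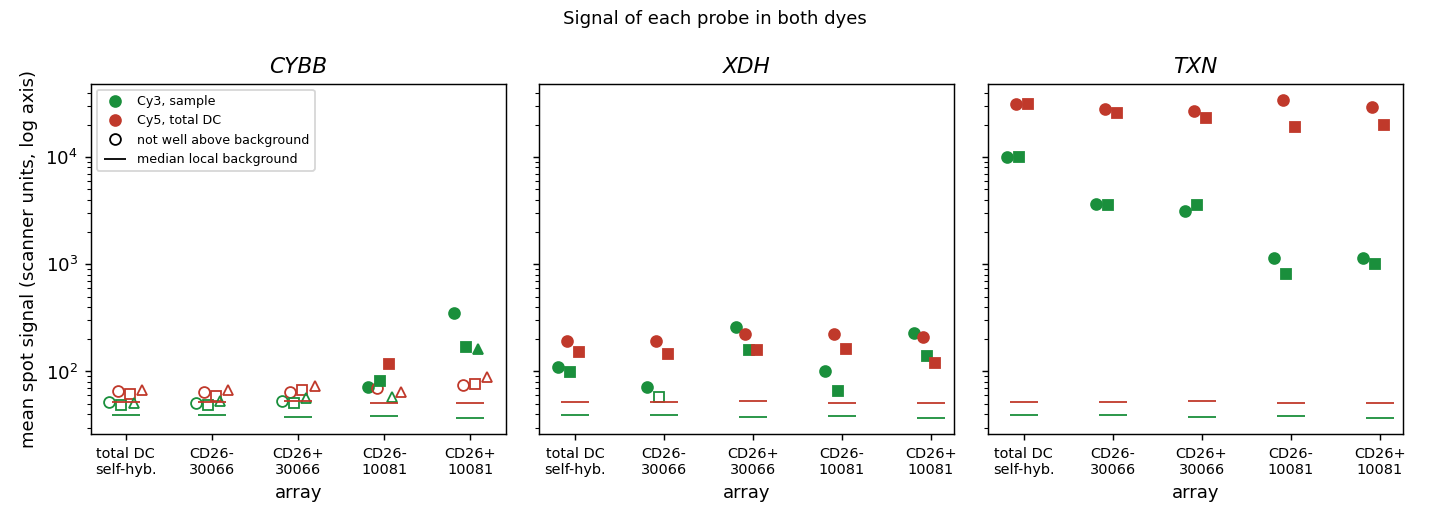
Mean spot signal in scanner units, on a log axis, of every probe on the 5 arrays, with Cy3 (sample) in green and Cy5 (total DC) in red; open symbols are spots not well above background, dashes are the median local background of the array, and marker shapes are the probes of a gene in the order of the plot of log2 ratios. CYBB spots are highest in Cy3 on the CD26+ array of sheep 10081 and are well above background elsewhere only on the CD26- array of that sheep, XDH spots lie between 57.7 and 259 units, and TXN spots between 808 and 34388 units.

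CYBB differed between the sheep. At the first probe, A_70_P068061, the ratio was 0.04 in CD26- and 0.02 in CD26+ cells of sheep 30066, 0.43 in CD26- and 2.46 in CD26+ cells of sheep 10081, and 0.08 on the self-hybridisation. The second probe gave 0.05 and -0.02 in sheep 30066, 0.00 and 1.47 in sheep 10081, and -0.07 on the self-hybridisation. The third, which was well above background on 1 array and was not among the probes fitted, gave 0.06 and 0.16 in sheep 30066 and 0.31 and 1.67 in sheep 10081. All 3 probes were highest on the CD26+ array of sheep 10081 and lay between -0.07 and 0.43 on the other 4 arrays.

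The CYBB difference between CD26+ and CD26- cells was 2.03 in sheep 10081 and -0.03 in sheep 30066 at the first probe, a mean of 1.003 ± 1.46 (SD, n = 2 sheep). At the second it was 1.47 and -0.07, a mean of 0.70 ± 1.09, and at the third 1.37 and 0.10. The 1.47 is set against a CD26- array with the highest Cy5 signal at that probe, 118 units against 76.1 on the CD26+ array. It therefore moved with Cy5 as well as Cy3. The spread between the sheep exceeded the mean at each probe. Without the CD26+ array of sheep 10081 the difference at the first probe was -0.22. Each of the 3 probes was at least 2-fold above its next highest array on that array, by 2.03, 1.42 and 1.37, with the second and the third nearly the same probe. Of all tested probes with values, 2.66% were at least 2-fold above the other 4 arrays there, and 2.06% on the CD26+ array of sheep 30066. The third CYBB probe was not tested. The first and the second passed the filter only through the arrays of sheep 10081, where they are high, so nothing is read from these shares.

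Most CYBB spots were not well above background. In sheep 30066 and in total DC the Cy3 signal was 48.6 to 57.0 units over the 3 probes and not well above background on any array, so a difference between the subsets of that sheep was not detectable. On the CD26+ array of sheep 10081 it was 349, 170 and 162 units at the first, the second and the third probe, well above background at each. In CD26- cells of sheep 10081 it was 71.8 and 81.3 units at the first and second probes, well above background, and 58.3 units at the third, not so. Against total DC, which was not above background, the CD26+ array of sheep 10081 stood 4.80-fold higher at the first probe and 2.23-fold at the third. Those values use the total DC signal as measured. At the second probe that array stood 2.81-fold above the lowest signal well above background. These folds are not firm lower bounds, and they hold for 1 of 2 CD26+ arrays. In CD26+ cells of sheep 30066 the difference from the self-hybridisation was -0.07 at the first probe and 0.04 at the second, with neither side measured.

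The Cy5 signal of total DC for CYBB was not well above background on any array at the first and the third probes. At the second it was well above on the CD26- array of sheep 10081 only, at 118 units against 59.6 to 76.1 on the other 4, where Cy3 was 81.3 units and the ratio 0.00. CYBA, the partner chain that forms the membrane core of the oxidase with CYBB, was well above background on all arrays and is named after its values were seen. Its ratio was 1.46 in CD26- and 0.78 in CD26+ cells of sheep 30066, and 0.33 and 1.68 in those of sheep 10081, and its other probe gave the same picture, at 1.45 and 0.76 and at 0.27 and 1.68. CYBA, like CYBB, was higher in CD26+ cells of sheep 10081, by 1.34, whereas in sheep 30066 it stood at -0.68.

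CYBB is also a gene of monocytes and neutrophils, so markers of those cells are given beside it. Of 7 genes listed for monocytes and macrophages, CD14 and FABP5 had a named probe. Cy5 on the self-hybridisation was 233900 units for FABP5, 124400 for CD1B and 3378 for CD14. FABP5 was thus brighter in total DC than the gene of the sort marker, and it is not taken as specific to those cells. On the CD26+ array of sheep 10081, where CYBB was highest, CD14 stood at -1.56 and FABP5 at -4.92. CD14 was similar in CD26- and CD26+ cells of sheep 30066, at -1.162 and -1.485, and stood at 0.32 in CD26- cells of sheep 10081. FABP5 lay between -3.70 and -2.60 on the other subset arrays. The median of these 2 genes was -3.24 on the CD26+ array of sheep 10081 against -2.50 to -1.69 on the other subset arrays. LTF, the granule protein lactoferrin and the only neutrophil marker of 8 with a probe, was not well above background on that array and stood at 0.01. The part of other cells in the CYBB values was not tested.

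TXN was among the bright probes. At A_70_P039382 the ratio was -1.78 in CD26- and -1.83 in CD26+ cells of sheep 30066, -3.73 in CD26- and -3.41 in CD26+ cells of sheep 10081, and -0.25 on the self-hybridisation. The other probe gave -1.70 and -1.46 in sheep 30066, -3.51 and -3.06 in sheep 10081, and -0.29 on the self-hybridisation. The values grouped by sheep and not by subset, and at each probe both arrays of sheep 10081 lay below both arrays of sheep 30066.

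Against the self-hybridisation, TXN at A_70_P039382 stood at -2.37 (SE 1.12) in CD26+ cells, with -1.58 in sheep 30066 and -3.16 in sheep 10081. In CD26- cells it stood at -2.51 (SE 1.12), with -1.53 and -3.48. Total DC thus had 5.16-fold the level of CD26+ cells and 5.68-fold that of CD26- cells at this probe, and 3.90-fold and 4.96-fold at the other. For 2 of 2 TXN probes all 4 subset arrays lay at least 2-fold below the self-hybridisation, as did 3.79% of all probes with values, while 5.66% lay as far above. This count depends on the scaling. With arrays scaled to a common spread it was 0 of 2. At each probe both arrays of sheep 10081 and neither of sheep 30066 then lay 2-fold below. The CD26+ values were then -1.22 at A_70_P039382 and -0.81 at the other probe. Before scaling, the self-hybridisation had the narrowest spread, with an SD of 0.291 against 1.18 to 1.42 for the sorted cells. Scaling took its TXN ratio from -0.25 to -0.72 at A_70_P039382 and from -0.29 to -0.85 at the other probe. How much of the changed count came from this stretched baseline was not tested. The 4 differences share 1 self-hybridisation array as their baseline, so they are not independent. In bulk samples such as these, fewer cells with the transcript and less of it per cell cannot be told apart.

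The gap between the sheep was larger than any difference between the subsets for TXN. The mean of the arrays of sheep 30066 exceeded that of sheep 10081 by 1.76 at A_70_P039382, or 3.39-fold, and by 1.71 at the other probe. Between CD26+ and CD26- cells the difference was -0.05 in sheep 30066 and 0.32 in sheep 10081 at the same probe, a mean of 0.14 ± 0.26 (SD, n = 2 sheep), and 0.24 and 0.45 at the other, a mean of 0.35 ± 0.15. Of all probes with values, 1.62% had both arrays of sheep 10081 at least 2-fold below both arrays of sheep 30066, and 4.26% had them at least 2-fold above. Leaving out 1 array mixes the sheep gap into the subset difference, which then ranged from -0.84 to 1.11.

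The raw signals showed the same order. The Cy3 signal at A_70_P039382 was 10095 units in total DC, 3642 and 3145 units in CD26- and CD26+ cells of sheep 30066, and 1154 and 1139 units in those of sheep 10081. The Cy5 signal of total DC at this probe was 26815 to 34388 units on the 5 arrays and was not lower on the arrays of sheep 10081. At the other probe Cy5 was 19206 and 19845 units on the arrays of sheep 10081, against 23271 to 31514 units on the other 3. No spot of these genes was saturated.

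Markers of other cells are given beside TXN. For monocytes and macrophages CD14 and FABP5 were listed, of which FABP5 is not taken as specific to those cells. Their median ratio was -1.88 and -2.50 in CD26- and CD26+ cells of sheep 30066 and -1.69 and -3.24 in those of sheep 10081. On the self-hybridisation it was -0.36, so this median too stood below total DC on all 4 subset arrays. FABP5 alone was at -2.60 and -3.51 in sheep 30066, -3.70 and -4.92 in sheep 10081, and -0.92 on the self-hybridisation. CD14 was not below total DC in CD26- cells of sheep 10081, at 0.32 against 0.21. Of 8 T cell markers 5 had a named probe, and their median ratio was 0.99 and 1.82 in CD26- and CD26+ cells of sheep 10081 against -0.11 and 0.10 in those of sheep 30066. The 5 did not move alike. In CD26- and then CD26+ cells, CD3D stood at 4.11 and 3.18 in sheep 10081 against 1.41 and 0.10 in sheep 30066, and CD3E at 1.44 and 2.39 against 1.23 and 0.96. CD247 was lower in sheep 10081, at -2.53 and -1.45 against -1.92 and -0.30. CD5 was at 0.99 and 1.82 against -0.18 and 2.13, so only its CD26- cells were higher in sheep 10081. CD4, well above background on 2 arrays, lay between -0.18 and 0.02. The part of other cells in the TXN differences was not tested.

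**Figure D3:**
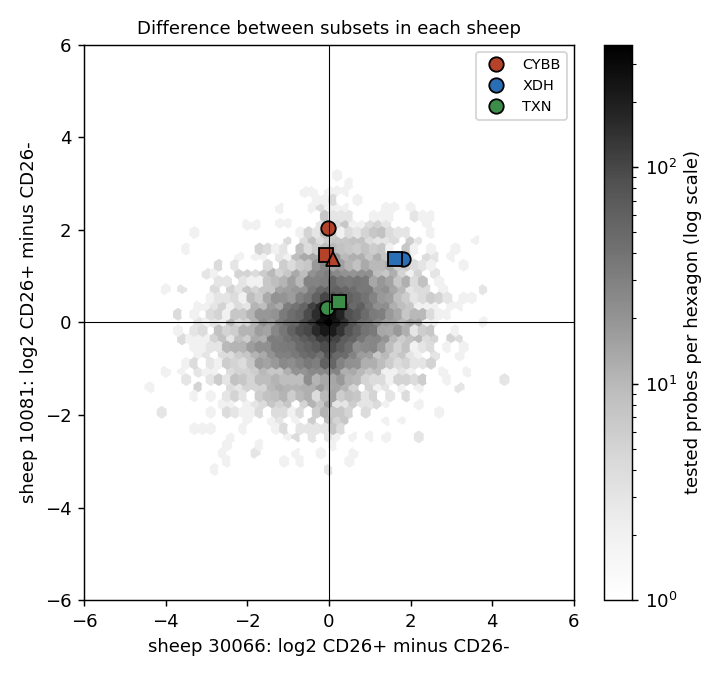
Log2 difference between CD26+ and CD26- cells in sheep 30066 (horizontal) against sheep 10081 (vertical); grey hexagons count all tested probes with values in both sheep on a log scale, and coloured symbols are the 7 probes, the untested CYBB probe included. XDH lies at 1.61 to 1.81 and 1.37 to 1.38, CYBB near 0 horizontally and at 1.37 to 2.03 vertically, and TXN near the origin.

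Over all features, limma with Benjamini-Hochberg adjustment called 0 of 13264 probes between CD26+ and CD26- cells, or 0%, and 748 had an unadjusted p under 0.05. For CD26+ and for CD26- cells against total DC it also called 0 of 13204 probes, with 1493 and 1400 at an unadjusted p under 0.05. The differences of XDH, CYBB and TXN are sizes, and none of their 6 fitted probes was called in any of the 3 comparisons.

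Other genes of redox metabolism were taken from lists for the NADPH oxidases, other oxidases and oxygenases, the thioredoxin system, removal of superoxide and peroxide, glutathione, iron storage and its regulators, NADPH supply and purine breakdown. Of 82 genes other than CYBB, XDH and TXN, 18 had a named probe and all 18 were tested. A name was available for 1520 of 15008 probes, so other list genes may lie among the unnamed ones. limma called 0 of 18 in each of the 3 comparisons, and 1, 3 and 1 had an unadjusted p under 0.05 for CD26+ against CD26-, CD26+ against total DC and CD26- against total DC. Between the subsets, CD26+ cells had the higher value in both sheep for 2 genes and the lower for 8, against 27.2% and 28.2% of all tested probes with values, with 6 in opposite directions and 2 measured in 1 sheep only, and 0 were at least 2-fold apart in both. Their median difference was -0.24, against -0.0070 over all tested probes. The lists for superoxide and peroxide removal and for purine breakdown had no gene with a named probe, so the enzymes around XDH and those that dispose of its products were not analysed here.

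The redox genes farthest from total DC stood on both sides of it. GSTM3, a glutathione transferase, stood at -0.83 in CD26- and -4.04 in CD26+ cells of sheep 30066, at -1.79 and -2.64 in those of sheep 10081, and at 0.22 on the self-hybridisation. Its difference between CD26+ and CD26- cells was -3.21 in sheep 30066 and -0.85 in sheep 10081, or -2.03 (SE 0.66), the farthest from 0 of the 18. The other GSTM3 probe gave -2.004.

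GLRX2, a mitochondrial glutaredoxin, was below total DC on all subset arrays, at -1.39 and -1.51 in sheep 30066 and -1.69 and -2.62 in sheep 10081, against -0.20 on the self-hybridisation. TXNIP, which binds and inhibits thioredoxin, was not: it stood at 0.53 and 0.67 in sheep 30066 against 0.45 and -0.51 in sheep 10081. FTH1, the heavy chain of the iron store ferritin, was at -1.55 and -2.15 in sheep 30066 and -2.41 and -2.43 in sheep 10081, against -0.83 on the self-hybridisation. CD26+ cells were at least 2-fold below total DC in both sheep for GLRX2, GSTM3 and FTH1, 3 of 18, a background of 8.79% of probes with values; CD26- cells were for 2 of 18, against 7.51%. With arrays scaled to a common spread GSTM3 kept all 4 subset arrays at least 2-fold below and PGD all 4 at least 2-fold above. GLRX2 had 1 so far below, and FTH1 turned to 0.54 to 1.10 above the self-hybridisation. That scaling stretches the narrow spread of the self-hybridisation, and its part in the turn of FTH1 was not tested.

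PGD, 6-phosphogluconate dehydrogenase, which makes NADPH in the pentose phosphate pathway, was the 1 gene of the 18 at least 2-fold above total DC in both sheep, in both subsets, as 9.90% and 10.2% of probes with values were for CD26+ and CD26- cells. It stood at 1.65 and 2.08 in CD26- and CD26+ cells of sheep 30066, at 3.15 and 2.92 in those of sheep 10081, and at -0.36 on the self-hybridisation. Like TXN it differed more between the sheep than between the subsets, and in the opposite direction. Its difference between CD26+ and CD26- cells was 0.10 (SE 0.67).

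**Figure D4:**
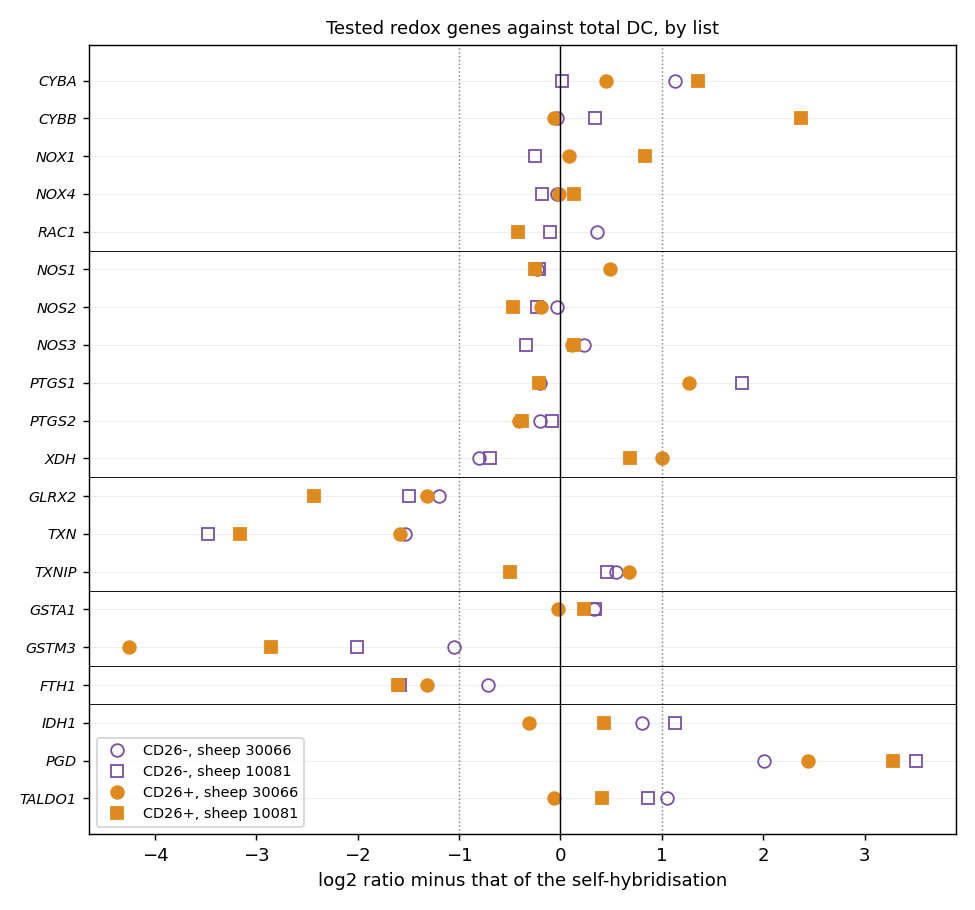
Log2 ratio minus that of the self-hybridisation for the 21 tested redox genes except 1 that is not shown, CYBB, XDH and TXN included, 1 probe each, grouped by list; open purple symbols are CD26- cells, filled orange symbols CD26+ cells, circles sheep 30066 and squares sheep 10081, and dotted lines mark 2-fold. TXN, GLRX2, GSTM3 and FTH1 lie to the left of 0 on all 4 arrays (FTH1 to the right once arrays are scaled to a common spread), PGD to the right, and XDH has its subsets on opposite sides. NOS2 and PTGS2 also lie to the left on all 4, within the 2-fold lines, and CYBA to the right.

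The genes with the most similar pattern were found among 492 named genes by the root mean square difference of the log2 ratio over the 5 arrays. FAS, a death receptor, was the nearest to XDH at both probes, with a root mean square difference of 0.21 and 0.20. FAS stood at -0.79 in CD26- and 0.58 in CD26+ cells of sheep 30066 and at -0.95 and 0.49 in those of sheep 10081. The other FAS probes did not share this pattern: their differences between the subsets were 0.18 and 0.61, against 1.41 for the probe used. CXCR4, a chemokine receptor, came next at 0.34 and 0.30, followed by PPP1R12A, a subunit of myosin phosphatase, at the brighter probe and ACLY, ATP citrate lyase, at the other (0.41 each).

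SHMT1, an enzyme of folate metabolism, the Notch ligand JAG1 and the serotonin transporter SLC6A4 were nearest to CYBB, at 0.23 to 0.42. SHMT1 had a ratio of 1.93 on the CD26+ array of sheep 10081 and of at most 0.19 on the others, and was well above background in Cy3 on 2 of 5 arrays. For TXN the nearest genes were farther away, at 0.55 to 0.71. They were the lysophosphatidic acid receptor LPAR1, the fructose transporter SLC2A5, and ARG2, an arginase, at A_70_P039382 or FTH1 at the other probe. SLC2A5 stood at -2.35 and -2.20 in sheep 30066 against -3.30 and -2.45 in sheep 10081.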

How the data were processed

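Spot intensity and local background, linear and not normalised, were deposited as written by the scanner software (Feature Extraction, version 9.5.3.1 per the file headers). Its deposited log ratio is log10 of Cy5 over Cy3. The authors' table of values is on a log2 scale and matched the scanner ratio with the sign turned, with differences of at most 5e-10, which makes it sample over reference; its column medians were -0.068 to 0.015 and further centring by the authors is not given in the sources used here. Per the labels, RNA was extracted with a Qiagen kit, 200 ng were amplified, and samples were Cy3 without dye swaps.

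Mean signals were corrected with normexp (offset 50) and normalised by loess within arrays, in limma 3.58.1 and R 4.3.3. The 536 control spots had weight 0; outlier spots (49 to 157 per array) and spots whose local background exceeded 5 times the array median (0 to 9) were left out. A probe was tested if at least 2 of 5 arrays had it well above background in Cy3 (13264 of 15008, 6 of the 7 described). Every share of probes with values is taken over tested probes. lmFit and eBayes fitted 3 group means (2 residual degrees of freedom), with calls at an adjusted p under 0.05. An SE comes from this fit and includes the differences between sheep. The arrays of a sheep share the animal by the labels; their deviations from the group means correlated with r = 0.33 across probes. The number of arrays limits every value. The scripts were tested on simulated arrays. That test required only the right direction for large differences at brighter probes, and it does not bear on dim probes or on differences between sheep.

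The genes, the lists and the background model were chosen with earlier results of these data known. Every probe of CYBB, XDH and TXN is described. A list gene is represented by its brightest probe and named where it was at least 2-fold apart in both sheep between the subsets or from the self-hybridisation; TXNIP and CYBA were named as partners after their values were seen. The 3 nearest named genes per probe are given. Symbols came from the files, from sheep RefSeq (ARS-UI_Ramb_v3.0, names only) and, for TXNIP, GSTM3, FABP5, CD1B and nitric oxide synthases, by hand from older names or descriptions. The CYBB folds over total DC set the normalised log2 Cy3 signal of 1 array (loess, then Aquantile) against the self-hybridisation. There the higher of the probe's own signal and the lowest signal well above background was used. Spots not well above background can exceed that lowest signal, and the folds are open to dye bias. Positions and protein sequences were not used here. The values of 1 listed redox gene are not reported here; it is included in the counts and medians.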

Additional observations from a re-analysis of the deposited data

How the results depend on the processing

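Every alternative called 0 probes in each comparison (748 at an unadjusted p under 0.05 between the subsets). Pairing the arrays by sheep (replicate block) also called 0, with 1122 at an unadjusted p under 0.05, and this pairing changed no call. The cause of each shift below was not tested. At the brighter XDH probe the difference between subsets was 0.79 with the background model on all spots, 1.25 scaled between arrays and 2.00 with an offset of 16. CD26+ against total DC was 0.60 with median centring; CD26- against total DC was -0.11 on all spots, -0.84 from the scanner's processed signals and with median centring, -0.45 scaled between arrays and -1.02 with an offset of 16. The first CYBB probe in CD26- cells against total DC turned to -0.24 with median centring. TXN at A_70_P039382 in CD26+ cells against total DC was -1.22 scaled between arrays, and leaving out 1 array gave -3.16 to -1.58; its difference between subsets was -0.84 to 1.11 leaving out 1 array. Leaving out 1 array gave 1.43 to 1.75 for XDH and -0.22 to 2.22 for CYBB between subsets. Where an array is left out, the lone array of a subset is assumed to vary like the others. CYBB is limited by signal near background.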

Other observations

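Some further redox genes, picked after their values were seen, are given as values. PTGS1, a cyclooxygenase, went in opposite directions: CD26+ minus CD26- was 1.47 in sheep 30066 and -1.997 in sheep 10081. IDH1 and TALDO1, both on the list for NADPH supply, stood lower in CD26+ cells in both sheep. The differences were -1.12 and -0.71 for IDH1 and -1.11 and -0.45 for TALDO1. NOS2, the inducible nitric oxide synthase, stood at -0.16 and -0.24.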
